A study of Mus musculus with 12 samples.

Results

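Small nucleolar RNA (snoRNA) host genes were examined in ARG1+ and ARG1- microglia sorted by a YFP reporter. The set holds 9 noncoding genes, *Gas5*, *Snhg1*, *Snhg3*, *Snhg5*, *Snhg6*, *Snhg8*, *Snhg12*, *Snhg15* and *Snhg17*, chosen by symbol out of the 55487 genes in the count table. All 9 passed the filter on low counts, which kept 16908 genes, and all 9 reached its cutoff in both populations. RNA-seq was performed on 12 libraries from YARG reporter mice at postnatal day 13, which carry this YFP reporter. There were 3 libraries each of ARG1+ female, ARG1+ male, ARG1- female and ARG1- male microglia, all from the basal forebrain and striatum, with no treatment given in the labels. Each library came from the pooled tissue of several pups of 1 sex, sorted as CX3CR1+ CD206- cells and split on YFP, so a library is an average over animals and carries the YFP reporter allele in both populations. A figure legend of the paper gives 3 litters per sex as biological replicates, and the labels do not say which libraries share a litter.

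A snoRNA host gene is transcribed by RNA polymerase II, and snoRNAs are cut out of its introns during splicing. Box C/D snoRNAs guide the methylation of ribosomal RNA and box H/ACA snoRNAs guide its pseudouridylation. The spliced host RNA often has no long reading frame and is destroyed by nonsense-mediated decay when it is translated. Many host genes start with a run of pyrimidines, the terminal oligopyrimidine (TOP) sequence that ribosomal protein genes also carry. *Gas5* was named for its accumulation in growth-arrested cells.

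Total counts per library lay between 28356659 and 60625170, and 3 counts, taken as the floor of detection, equal at most 0.102 CPM, where CPM is the count scaled to a common library size. The 8 microglia markers (*P2ry12*, *Tmem119* and others) summed to between 35822 and 46489 CPM in ARG1+ and between 45144 and 59913 CPM in ARG1- libraries. Neuron markers, of which 0 of 7 were called, summed to at most 9.18 CPM in ARG1+ and 20.3 CPM in ARG1- libraries. In a sorted bulk sample, fewer cells of a type and less RNA per cell cannot be told apart.

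The host genes differ in what they carry, as annotated by GENCODE M21 on GRCm38. *Gas5* lies on the plus strand of chr1:161034422-161038539 and holds 9 distinct snoRNA positions. *Snhg1*, on the plus strand of chr19:8723475-8726443, holds 8. *Snhg12* (chr4:132308623-132311024, plus strand) holds 4, *Snhg17* (chr2:158353700-158361580, minus strand) holds 3, and *Snhg3* (chr4:132348014-132353686, minus strand) and *Snhg5* (chr9:88521050-88522929, minus strand) hold 2 each. *Snhg6* (chr1:9941959-9944118), *Snhg8* (chr3:123507552-123508404) and *Snhg15* (chr11:6525591-6528760), all on the minus strand, hold 1 each. Of the 31 positions, 17 have both the C box letters TGATGA near the 5′ end and the D box letters CTGA near the 3′ end, 9 end like an H/ACA snoRNA with ACA in the last bases, and 5 match neither rule.

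**Figure D1:**
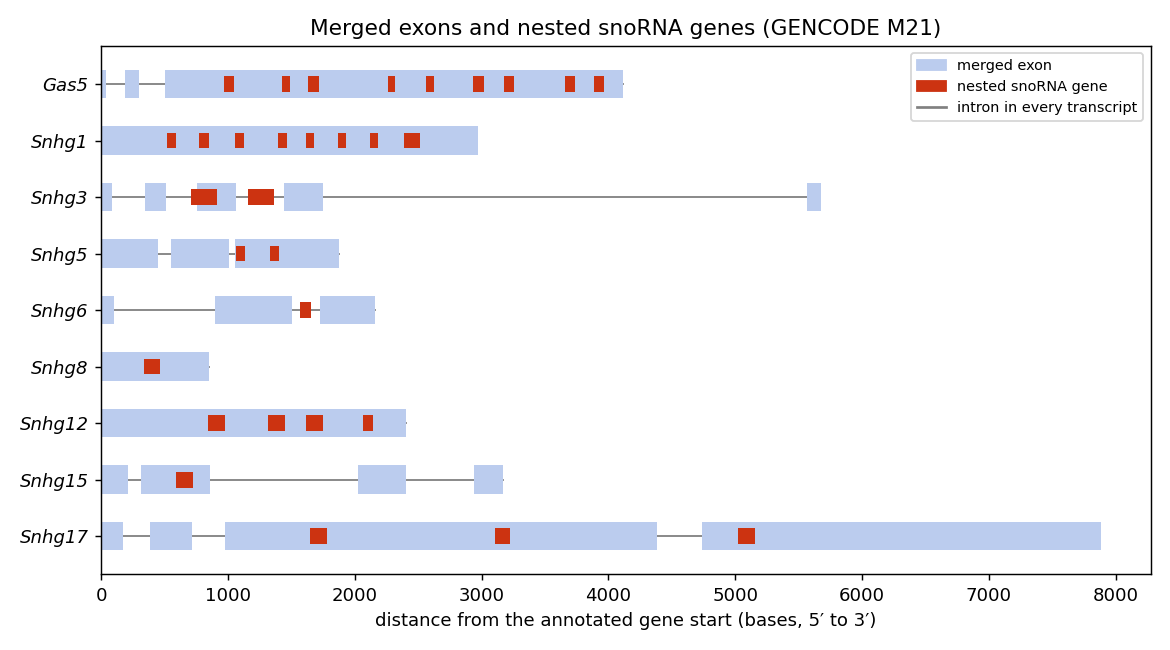
Merged exons (pale bars), introns shared by every annotated transcript (grey line) and nested snoRNA genes (red) of the 9 host genes, by distance in bases from the annotated gene start. *Snora73b* of *Snhg3* and *Snord87* of *Snhg6* share 0 bases with the merged exons, and the other snoRNAs lie in them wholly or in part.

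The nested snoRNAs on which the results below turn are shown 5′ to 3′, as DNA letters of the annotated transcripts, with capitals for the C and D boxes where both were matched, or for the terminal ACA. *Snord78* has CTGA near its 3′ end but no TGATGA, and is in lower case throughout. The first 3 gave the called rows inside host genes, *Snord78* was the most counted snoRNA row of *Gas5* by its median in both populations, and the last 2 belong to *Snhg3* and *Snhg15*.
Gm22357 in Gas5 (chr1:161036057-161036139, plus strand): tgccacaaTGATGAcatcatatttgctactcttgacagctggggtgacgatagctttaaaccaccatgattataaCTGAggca
Gm23212 in Gas5 (chr1:161036682-161036741, plus strand): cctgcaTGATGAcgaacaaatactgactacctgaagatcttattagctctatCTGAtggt
Gm25855 in Snhg1 (chr19:8723993-8724064, plus strand): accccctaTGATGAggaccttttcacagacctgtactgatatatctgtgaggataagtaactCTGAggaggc
Snord78 in Gas5 (chr1:161036984-161037049, plus strand): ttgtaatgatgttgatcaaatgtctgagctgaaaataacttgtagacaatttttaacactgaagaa
Snora73b in Snhg3 (chr4:132352322-132352526, minus strand): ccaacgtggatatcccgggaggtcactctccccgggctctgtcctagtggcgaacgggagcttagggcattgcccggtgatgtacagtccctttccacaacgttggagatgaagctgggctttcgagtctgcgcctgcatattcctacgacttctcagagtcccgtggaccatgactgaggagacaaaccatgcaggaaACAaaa
Snora9 in Snhg15 (chr11:6528033-6528165, minus strand): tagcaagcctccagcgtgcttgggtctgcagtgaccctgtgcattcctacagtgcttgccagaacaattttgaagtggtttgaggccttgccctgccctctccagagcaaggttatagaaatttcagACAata

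*Snora73a* and *Snora73b* of *Snhg3* are identical at 198 of 205 bases, and *Snord50a* and *Snord50b* of *Snhg5* at 71 of 72, so that reads of such a pair can be assigned to the wrong copy and their separate counts are uncertain. Only pairs of equal length were compared. *Gm23925* (132 bases) and *Gm24411* (131 bases) of *Snhg17* are also much alike, and the same limit holds for them.

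Because ribosomal protein genes moved together in these libraries, the start sites of the host genes were read from RefSeq (GRCm38.p6), which has 10 windows for 8 of the 9 genes. Each line below gives 20 bases before the annotated start and the 20 bases from it on, with a tract in capitals where there is a C followed by at least 4 further C or T letters within 10 bases of the start on the sense strand.
Gas5, downstream of 2 annotated starts (chr1:161035146-161035185, plus strand): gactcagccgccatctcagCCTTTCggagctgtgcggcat
Snhg12 (chr4:132308658-132308697, plus strand): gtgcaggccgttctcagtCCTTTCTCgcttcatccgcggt
Snhg8 (chr3:123508317-123508356, minus strand): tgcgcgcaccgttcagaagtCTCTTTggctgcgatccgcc
Snhg3 (chr4:132353667-132353706, minus strand): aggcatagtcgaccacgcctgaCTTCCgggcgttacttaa
Snhg15 (chr11:6528741-6528780, minus strand): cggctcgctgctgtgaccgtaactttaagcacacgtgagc
Snhg1 (chr19:8723467-8723506, plus strand): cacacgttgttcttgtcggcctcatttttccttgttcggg

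A tract was found in *Gas5*, *Snhg3*, *Snhg5*, *Snhg8* and *Snhg12*, that is, in 5 of 8 genes (62.5%). Of the ribosomal protein genes with a window, 39 of 63 (61.9%) had one, against 34.4% of all 27025 genes with a window. The letters TATAAA or TATATA stood between 40 and 16 bases before a start, on the sense strand, in *Gas5*, *Snhg5*, *Snhg8* and *Snhg12*, 4 of 8 genes, against 3.3% of all genes with a window. These are matches of letters in a window around an annotated start and do not show which start these cells use.

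Per kilobase of merged exons, *Gas5* had the highest mean level of the 9 genes in both populations, with 19.95 ± 5.33 CPM per kilobase in ARG1+ samples and 14.5 ± 4.13 in ARG1- samples (SD, n = 6). In ARG1+ microglia it was followed by *Snhg15* (10.6 ± 3.91), *Snhg3* (9.12 ± 2.33) and *Snhg5* (7.29 ± 2.01). *Snhg6* (2.88 ± 1.35), *Snhg1* (2.31 ± 0.996), *Snhg8* (1.72 ± 0.781) and *Snhg17* (1.36 ± 0.395) came next, and *Snhg12* (0.354 ± 0.174) was lowest. In ARG1- microglia the order below *Gas5* was *Snhg3* (8.03 ± 2.71), *Snhg5* (6.27 ± 4.11), *Snhg15* (5.10 ± 2.34), *Snhg8* (2.17 ± 1.24), *Snhg6* (1.99 ± 0.612), *Snhg1* (1.88 ± 0.799), *Snhg17* (1.08 ± 0.415) and *Snhg12* (0.623 ± 0.416). Library ranges of genes next to each other in the order overlapped in 7 of 8 pairs in ARG1+ and in 8 of 8 in ARG1- microglia, the exception being *Snhg17* and *Snhg12* in ARG1+. Merged exons cover the whole span of *Snhg1*, *Snhg8* and *Snhg12* and most of that of *Gas5* (3760 of 4118 bases), *Snhg5* (1730 of 1880) and *Snhg17* (7052 of 7881), so the levels of these genes per kilobase, and with them the order, are not those of spliced RNA alone.

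For none of the 9 host genes did the populations differ with an adjusted p below 0.05 (edgeR's quasi-likelihood test with sex as a second term, Benjamini-Hochberg over all genes tested), while 15.9% of all genes tested did. At an unadjusted p under 0.05 there was 1 of 9, *Snhg15*, against 29.1% of all genes. DESeq2's Wald test called that 1 gene higher, where 2141 of all 18671 genes it tested were called higher and 1964 lower. The libraries of the 2 populations overlapped for each of the 9 genes, against 10% of all genes tested whose populations did not overlap. The fitted change was above 0 in 7 of 9 genes (53.6% of all genes) and its median was 0.30 on the log2 scale (0.06 over all genes). Among the 9 genes the fitted log2 change ran from -0.81 for *Snhg12* to 1.04 for *Snhg15*.

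*Snhg15*, the host of *Snora9*, had the smallest p of the 9 genes. Its level was between 8.51 and 22.6 CPM in ARG1+ libraries (median 12.8) and between 3.26 and 10.8 CPM in ARG1- libraries (median 6.83). The 5 ARG1+ libraries other than male replicate 16 were above every ARG1- library. The mean was 14.4 ± 5.32 CPM in ARG1+ and 6.93 ± 3.18 CPM in ARG1- microglia (SD, n = 6), and the fitted log2 fold change was 1.04 (SE 0.36, 95% interval 0.27 to 1.82, unadjusted p = 0.0126, adjusted p = 0.0683, edgeR). The adjusted p fell under 0.05 in 3 of the alternatives, being 0.0148 with DESeq2's Wald test, 0.0311 with at least 10 counts required in every library and 0.0497 without ARG1- male replicate 6, and was between 0.0503 and 0.143 in the other alternatives, libraries 13 to 16 alone aside. The fitted log2 change was 1.07 in the libraries numbered 1 to 12 in the labels and 1.06 in those numbered 13 to 16.

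*Gas5*, the host of box C/D snoRNAs with the highest level, ranged from 44.5 to 99.1 CPM in ARG1+ libraries (median 76.2) and from 35.1 to 79.9 CPM in ARG1- libraries (median 54.1). The 3 ARG1+ female libraries held 71.9, 92.1 and 99.1 CPM, and the 3 ARG1- female libraries 35.1, 44.6 and 79.9 CPM. The lowest ARG1+ value, 44.5 CPM, was in male replicate 16, and the highest ARG1- value in female replicate 13. The mean was 75.02 ± 20.1 CPM in ARG1+ and 54.7 ± 15.5 CPM in ARG1- microglia, with a fitted log2 fold change of 0.44 (95% interval -0.04 to 0.91, adjusted p = 0.213, edgeR). With the counts of nested snoRNA rows taken off the host count, the fitted change was 0.27 (adjusted p = 0.449). The libraries numbered 1 to 12 gave 0.67 and those numbered 13 to 16 gave 0.12.

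**Figure D2:**
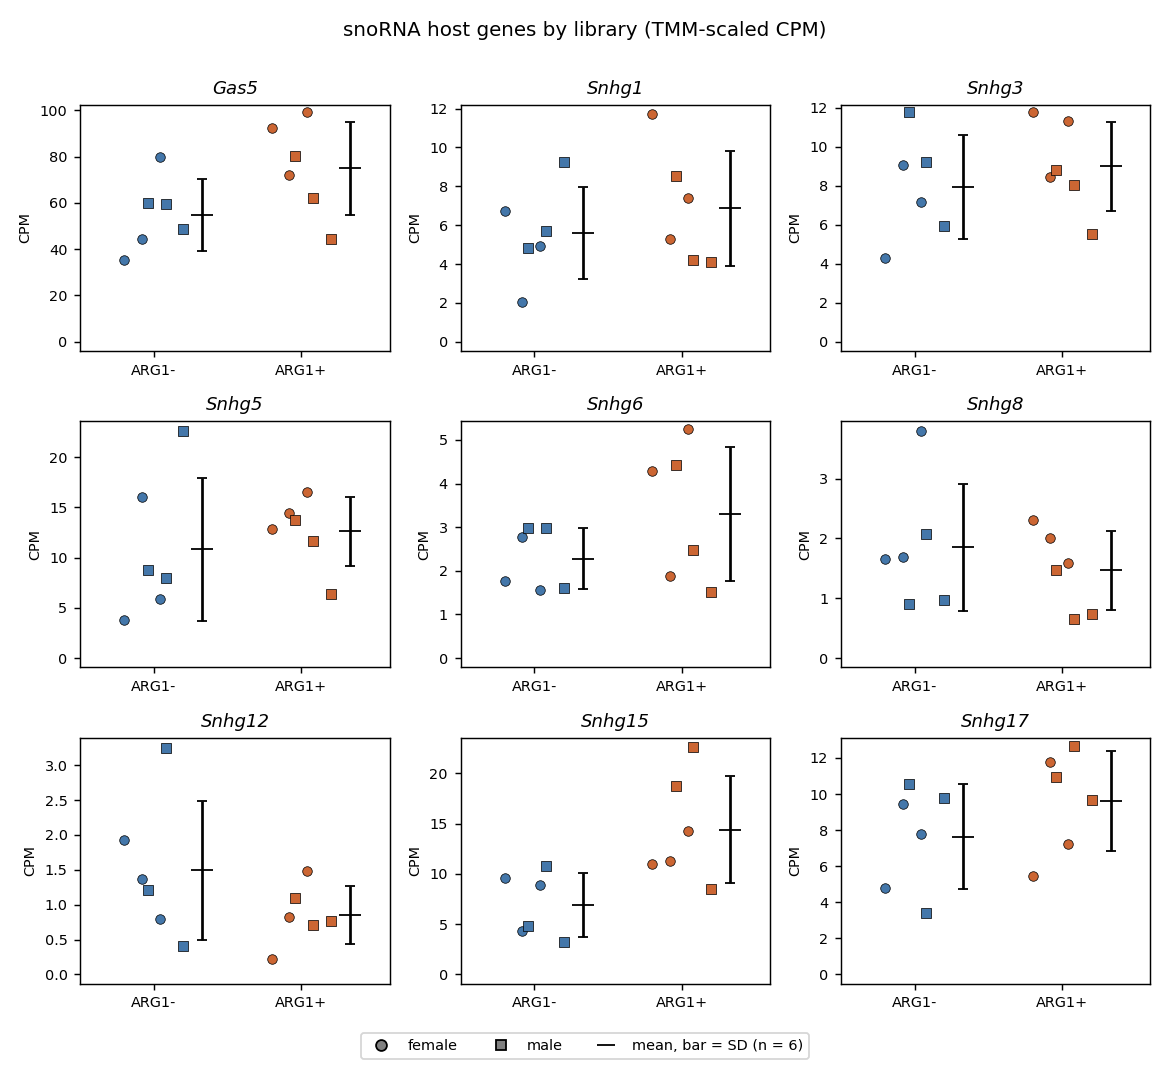
CPM (TMM-scaled) of each host gene in the 12 libraries, females as circles and males as squares, with the mean and SD of the 6 libraries of each population. The 2 populations overlap in all 9 panels; for *Snhg15*, 5 of 6 ARG1+ libraries lie above the highest ARG1- library, at 10.8 CPM.

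Of the other box C/D hosts, *Snhg1* ranged from 4.09 to 11.7 CPM in ARG1+ (median 6.34) and from 2.07 to 9.24 CPM in ARG1- libraries (median 5.33), a fitted log2 change of 0.30 (95% interval -0.55 to 1.14, adjusted p = 0.667, edgeR). Without the nested snoRNA counts this change was -0.025. *Snhg5* ranged from 6.34 to 16.5 CPM in ARG1+ (median 13.3) and from 3.78 to 22.6 CPM in ARG1- libraries (median 8.40), so that the highest and the lowest value were both in ARG1- microglia. Its fitted log2 change was 0.23 (95% interval -0.67 to 1.13, adjusted p = 0.761, edgeR). *Snhg6* ranged from 1.51 to 5.24 CPM in ARG1+ (median 3.38) and from 1.57 to 2.99 CPM in ARG1- libraries (median 2.27), with 3 ARG1+ libraries above all ARG1- libraries and a fitted log2 change of 0.53 (95% interval -0.36 to 1.41, adjusted p = 0.434, edgeR).

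The hosts of box H/ACA snoRNAs other than *Snhg15* gave fitted changes in both directions, none of which passed the test. *Snhg3*, which carries both *Snora73* copies, ranged from 5.54 to 11.8 CPM in ARG1+ (median 8.63) and from 4.29 to 11.8 CPM in ARG1- libraries (median 8.14), a fitted log2 change of 0.18 (95% interval -0.45 to 0.80, adjusted p = 0.736, edgeR). With the counts of *Snora73a*, which shares 159 bases with its exons, taken off, the change was -0.0089. *Snhg17* ranged from 5.46 to 12.7 CPM (median 10.3) and from 3.38 to 10.6 CPM (median 8.63), a fitted log2 change of 0.32 (95% interval -0.37 to 1.004, adjusted p = 0.556, edgeR). Levels of *Snhg8* were 0.651 to 2.32 CPM in ARG1+ and 0.900 to 3.80 CPM in ARG1- libraries, from 25 to 223 counts per library, with a fitted log2 change of -0.37 (95% interval -1.28 to 0.55, adjusted p = 0.618, edgeR).

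*Snhg12*, which holds both kinds of snoRNA, was the least counted of the 9 genes, with 7 to 97 counts per library. Its level was 0.222 to 1.48 CPM in ARG1+ (median 0.794) and 0.415 to 3.25 CPM in ARG1- libraries (median 1.30), and its fitted log2 change was -0.81 (95% interval -2.10 to 0.49, adjusted p = 0.411, edgeR). The change was -1.45 in the libraries numbered 1 to 12 and 0.92 in those numbered 13 to 16. *Snhg1*, *Snhg5* and *Snhg17* also had fitted changes of opposite sign in the 2 sets of libraries, with 0.63, 0.56 and 0.54 in the first and -0.27, -0.14 and -0.04 in the second. The second set holds only 2 libraries per population, so its values are given with no test. With a term for the 2 sets in the fit, the changes of these 4 genes were -0.71, 0.31, 0.26 and 0.32. *Snhg8* had -0.028 in the first set and -0.80 in the second.

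The fitted changes of 6 genes also moved by over 1.5 times when single libraries were left out. That of *Snhg1* was between 0.08 (without ARG1- female replicate 2) and 0.52 (without ARG1- male replicate 14). For *Snhg3* it was between 0.014 (without ARG1- female replicate 1) and 0.33 (without ARG1+ male replicate 16), and for *Snhg5* between 0.010 (without ARG1- female replicate 1) and 0.61 (without ARG1- male replicate 14). For *Snhg8* it was between -0.54 (without ARG1+ male replicate 11) and -0.14 (without ARG1- male replicate 6). For *Snhg12* it was between -1.10 (without ARG1+ female replicate 15) and -0.36 (without ARG1- male replicate 6), and for *Snhg17* between 0.14 (without ARG1- male replicate 6) and 0.45 (without ARG1+ female replicate 7). None of these 6 genes was called in any of the 12 fits. Those fits called from 1753 of 17725 genes tested (without ARG1+ male replicate 12) to 2669 of 17792 (without ARG1- female replicate 1).

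The same comparison was made within each sex in a fit of the 4 group means. In females 0 of 9 host genes passed an adjusted p of 0.05 (6.76% of all genes, 2.6% higher and 4.16% lower) and the fitted change was above 0 in 7 of 9 (50.7% of all genes), with a median of 0.69 (0.01 over all genes). The female change with the smallest p was that of *Gas5*, at 0.72 (95% interval 0.06 to 1.38, unadjusted p = 0.0347, adjusted p = 0.175, edgeR). In males 0 of 9 passed (5.13% of all genes, 2.03% higher and 3.1% lower) and 4 of 9 were above 0 (52% of all genes), with a median of -0.23 (0.04 over all genes). *Snhg15* had the smallest p in males, at 1.40 (95% interval 0.29 to 2.51, unadjusted p = 0.0179, adjusted p = 0.128, edgeR), with a mean of 16.6 ± 7.27 CPM in ARG1+ and 6.29 ± 3.99 CPM in ARG1- males (SD, n = 3).

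The ARG1 effect itself was not called different between the sexes for any host gene, at an adjusted p under 0.05 or at an unadjusted p under 0.05, where all genes tested gave 0 and 1576 (9.32%). The smallest p of these interaction tests was that of *Snhg3*, whose effect in females exceeded that in males by 0.88 on the log2 scale (95% interval -0.28 to 2.05, unadjusted p = 0.124, adjusted p = 0.65, edgeR). No difference between females and males was called for a host gene within ARG1- (0.0946% of all genes called, 0.0591% higher and 0.0355% lower in females) or within ARG1+ microglia (0.0355%, 0.0118% higher and 0.0237% lower) at an adjusted p under 0.05. At an unadjusted p under 0.05 there were also 0 of 9, against 10% of all genes in ARG1- and 3.12% in ARG1+ microglia. The intervals are wide at 3 libraries per group, as for *Snhg8* in ARG1+ microglia, where the female minus male difference was 1.04 (95% interval -0.32 to 2.40).

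**Figure D3:**
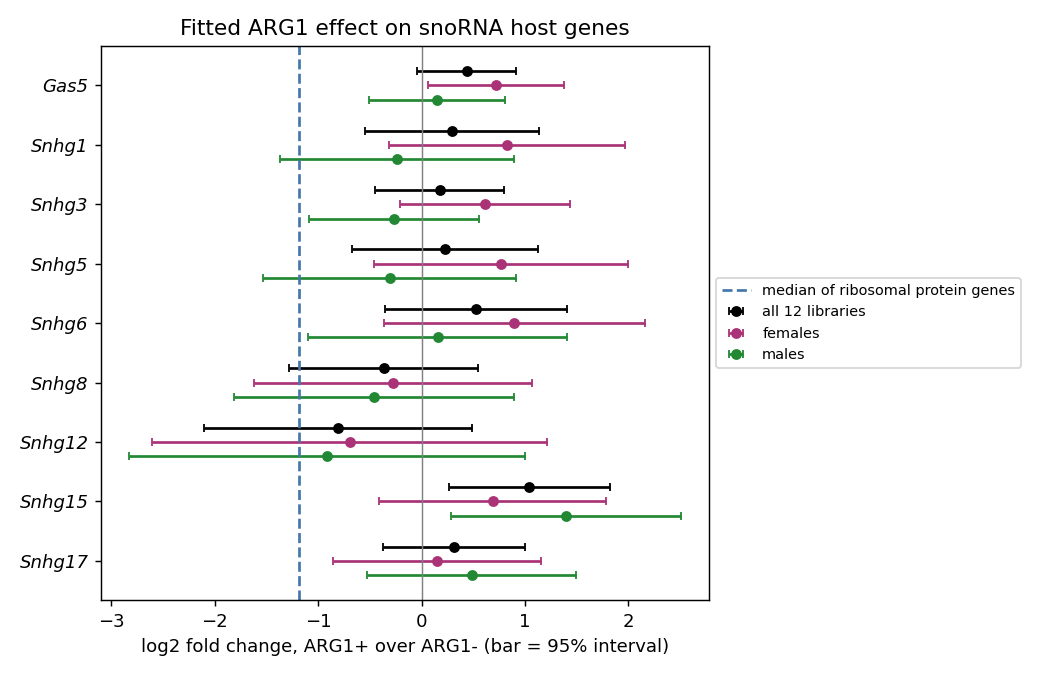
Fitted log2 fold change of ARG1+ over ARG1- microglia with its 95% interval for each host gene, over all 12 libraries (black), in females and in males. The dashed line is the median of the tested ribosomal protein genes, at -1.19; 7 of 9 black intervals lie above it (70.7% of all genes tested do), the exceptions being *Snhg8* and *Snhg12*.

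Ribosomal protein genes were lower in ARG1+ microglia. Of 81 tested, 79 passed at an adjusted p under 0.05, all lower and none higher, with a median log2 change of -1.19 (edgeR). Their summed level was between 2043 and 3520 CPM in ARG1+ and between 5293 and 6816 CPM in ARG1- libraries, without overlap. *Rplp0*, a protein of the ribosomal stalk, fell by 0.94 and *Rps3a1* by 1.42 on the log2 scale. The 95% interval of the host gene lay above -1.19 in 7 of 9 genes, against 70.7% of all genes tested, and it reached below that value in *Snhg8* and *Snhg12*. Of 20 other TOP genes, 14 were lower and 0 higher (median -0.76), among them *Eef1a1*, the elongation factor that brings transfer RNA to the ribosome (-1.15, adjusted p = 0.000263), and *Eif3h*, a subunit of initiation factor 3 (-1.15, adjusted p = 0.000275). Of 14 regulators of TOP genes and growth, 2 were higher, *Larp1*, which binds the TOP sequence (0.72, adjusted p = 0.00736), and *Eif4ebp2*, an inhibitor of cap-dependent initiation (1.11, adjusted p = 0.0413). A pair of them was lower, *Max*, the partner of Myc (-1.32, adjusted p = 0.00317), and *Maf1*, a repressor of RNA polymerase III (-0.38, adjusted p = 0.0231).

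The 30 ribosomal protein genes that themselves hold a snoRNA were all lower, with a median of -1.09, among them *Rps3* (-1.17, adjusted p = 0.000439). The other 194 tested protein-coding genes with a nested snoRNA had 17 higher and 18 lower and a median of 0.15. Of these, *Vps13b* rose by 1.65 (adjusted p = 0.0024), and *Prrg1*, listed at 0 in all ARG1- libraries, was at 2.85 ± 3.07 CPM in ARG1+ libraries. *Cryl1* fell by 0.90 (adjusted p = 0.000275) and *Gm45713* by 1.48 (adjusted p = 0.000578). Of 20 further tested genes that hold a snoRNA and are annotated as noncoding, 1 was higher, *Gm29170* (2.97, adjusted p = 0.0205), and 2 were lower, *2410006H16Rik* (-1.13, adjusted p = 0.00764) and *Cct6a* (-0.42, adjusted p = 0.011), a chaperonin subunit gene that this annotation types as a processed transcript. Their median was 0.24. Of 8 tested genes of a list of other known host genes, such as *Zfas1* and *Dancr*, 0 were called, 4 were above 0 and the median was -0.04. The lowest values of that list were those of *Meg3* (-2.82) and *Snhg11* (-2.37), which also stand in the list of neuron markers. Of these 8, 4 are also among the 20 noncoding genes and 1 is among the 194 protein-coding genes. No set test was run, and the groups of genes are described by these counts beside 6.44% higher and 9.42% lower of all genes.

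**Figure D4:**
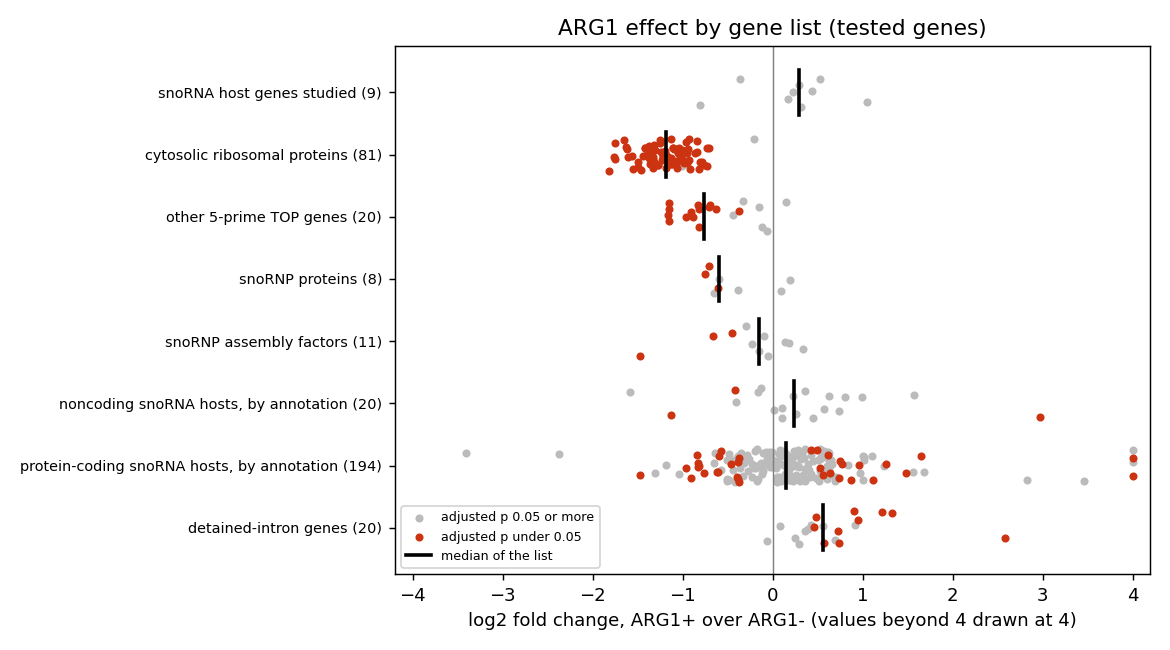
Log2 fold change of ARG1+ over ARG1- microglia for each tested gene of 8 lists (number tested in brackets), in red where the adjusted p was under 0.05, with the median of each list as a black line; values beyond 4 are drawn at 4 and the detained-intron list includes *Malat1* and *Neat1*. The 9 host genes have a median of 0.30 and no red point, the ribosomal protein genes a median of -1.19 and 79 red points of 81.

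The proteins that bind snoRNAs were tested from the same fit. Of 8 core proteins of the snoRNA particles, 3 were lower and 0 higher, with a median of -0.60. *Nop58*, a C/D box core protein, was at 22.1 ± 2.70 CPM in ARG1+ and 33.7 ± 5.25 CPM in ARG1- microglia (log2 change -0.61, adjusted p = 0.0149), and *Nhp2*, an H/ACA core protein, at 16.8 ± 4.28 and 27.6 ± 5.36 CPM (-0.71, adjusted p = 0.0273). *Nop10*, the other H/ACA protein called, had a log2 change of -0.75 (adjusted p = 0.0493). Fibrillarin (*Fbl*), the methyltransferase, and dyskerin (*Dkc1*), the pseudouridine synthase, had -0.59 (adjusted p = 0.06) and -0.65 (adjusted p = 0.0522). Of 11 assembly factors 3 were lower and 0 higher, among them *Znhit3* (-1.47, adjusted p = 0.00222) and *Pih1d1* (-0.66, adjusted p = 0.0326), with a median of -0.15. Of 15 factors of nonsense-mediated decay, which removes spliced host RNA, 1 was higher, *Smg5* (0.85, adjusted p = 0.00308), and 2 were lower, the exon junction proteins *Eif4a3* (-0.70, adjusted p = 0.000642) and *Magoh* (-0.94, adjusted p = 0.0177). The median was 0.04.

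Reads over the nested snoRNAs were called more frequent in ARG1+ microglia at 3 positions. Of 33 snoRNA rows inside the 9 host genes, 22 passed the filter, with 3 higher and 0 lower at an adjusted p under 0.05, where 9.89% of the 91 tested snoRNA rows outside these genes were higher and 11% had populations that did not overlap. Of the 22 rows, 5 reached the cutoff of the filter in at least 3 ARG1+ but not in 3 ARG1- libraries. For 0 rows it was the other way round. Of the 91 rows outside, 47 passed in the first way and 6 in the second. Passing only through the population where a row is high favours a difference without forcing one. Of the 5 rows, only *Gm25855* was called. Of the 12 rows inside the host genes that reached the cutoff in ARG1- libraries, 2 were higher and the median log2 change was 1.07. Of the 36 such rows outside, 3 were higher and the median was 0.37. Over all tested rows the medians were 1.29 for the 22 inside and 1.02 for the 91 outside. Whether the rows inside and outside the host genes differ was not tested. The 2 *Snord80* records overlap and count as separate rows.

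The 3 called rows were those printed first above. *Gm22357* in *Gas5* had 55 to 164 counts in ARG1+ (median 143.5) and 22 to 115 counts in ARG1- libraries (median 34), a log2 change of 1.48 (SE 0.43, adjusted p = 0.0364, edgeR). *Gm23212* in *Gas5* had 66 to 153 counts (median 127.5) and 19 to 99 counts (median 35.5), a log2 change of 1.45 (SE 0.44, adjusted p = 0.0444, edgeR). *Gm25855* in *Snhg1* had 8 to 33 counts in ARG1+ and 0 to 3 counts in ARG1- libraries, without overlap (adjusted p = 0.0274, edgeR). It is 1 of the 5 rows that passed the filter through ARG1+ libraries alone, which favours a difference. With no filter its adjusted p was 0.0493, and those of *Gm22357* and *Gm23212* were 0.0843 and 0.0984 (edgeR). These calls lay near the limit. In the 12 fits that leave out 1 library, the log2 change of *Gm22357* was 1.31 to 1.71 and it was called in 3, and that of *Gm23212* was 1.25 to 1.71 and it was called in 2. *Gm25855* was called in 1 of the 12, and the adjusted p of the 3 rows was at most 0.0812, 0.0873 and 0.0692. *Snord78* had 102 to 222 counts in ARG1+ (median 179) and 37 to 271 counts in ARG1- libraries (median 76), a log2 change of 0.87 (unadjusted p = 0.0353, adjusted p = 0.136, edgeR).

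Counts over nested snoRNAs per 100 counts of the host were set beside each other after the rows had been seen, and are given as a description with no test. In *Gas5* they were between 20.6 and 24.03 in ARG1+ (median 22.6) and between 9.46 and 15.7 in ARG1- libraries (median 13.6), without overlap. In *Snhg3* they were between 32.2 and 46.0 in ARG1+ (median 36.2) and between 0.474 and 23.4 in ARG1- libraries (median 11.1), also without overlap. *Snora73b* shares no base with the *Snhg3* exons, so the nested count of this gene is not all part of its host count. The ranges overlapped in the other 7 genes. In *Snhg1* they were 17.4 to 38.5 and 0 to 19.6, and for *Snora9* in *Snhg15* 11.4 to 12.5 in ARG1+ and 0 to 11.8 in ARG1- libraries. Of 72 other hosts with at least 60 nested counts, 20.8% had the ARG1+ libraries above all ARG1- libraries and 68 had the higher median in ARG1+. The 2 of 9 host genes here are close to that share. By class it was 0 of 8 noncoding hosts, 29.2% of 24 ribosomal protein hosts and 20% of 40 other protein-coding hosts. Ribosomal protein hosts were themselves lower in ARG1+ microglia. The 72 also include *Rcc1*, which holds the same *Snora73* positions as *Snhg3*.

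**Figure D5:**
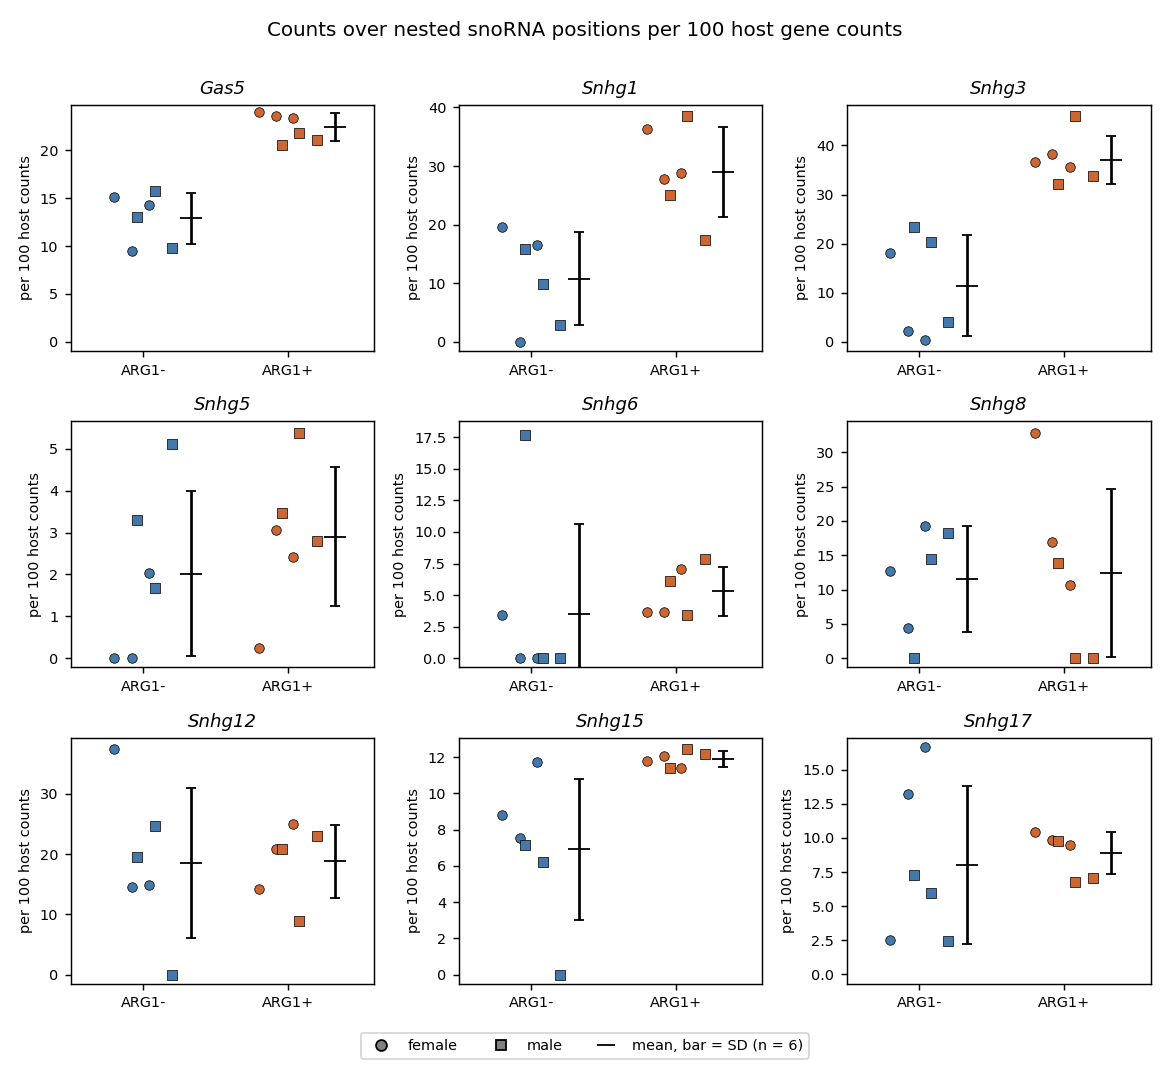
Counts over nested snoRNA positions per 100 counts of the host gene in each library, females as circles and males as squares, with the mean and SD of the 6 libraries of each population. The ARG1+ libraries lie above all ARG1- libraries in *Gas5* (lowest ARG1+ value 20.6, highest ARG1- value 15.7) and *Snhg3* (32.2 and 23.4).

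A read over a nested snoRNA can come from unspliced or intron-retaining host RNA, from a cut-out intron or from the snoRNA. These cannot be told apart in gene counts, so the counts are not levels of the snoRNAs. In *Snhg3* such a read can also come from *Rcc1* or from the antisense *Gm17300*, whose spans hold both *Snora73* positions. Of 18 genes listed for detained introns, 9 were higher and 0 lower with a median of 0.52, among them the cyclin *Ccnl2* (1.22, adjusted p = 0.000187) and *Rsrp1* (1.32, adjusted p = 0.000422), and they summed to between 5624 and 7608 CPM in ARG1+ and between 2775 and 5028 CPM in ARG1- libraries, without overlap. The nuclear noncoding RNAs *Malat1* and *Neat1*, which stood in the list as first drawn up, are left out of these values, and with them 10 of 20 were higher, with a median of 0.56. Of 18 immediate early genes, which respond to tissue dissociation among other stimuli, 2 were higher (*Egr1* 1.31, adjusted p = 0.00825, and *Atf3* 0.99, adjusted p = 0.0401) and 0 lower, with sums of 827 to 943 CPM and 604 to 942 CPM. Of 23 tested transcripts of the mitochondrial genome, 9 were lower and 0 higher with a median of -0.99, among them *mt-Co1* (-0.96, adjusted p = 0.00692) and *mt-Rnr2* (-1.61, adjusted p = 0.00825). Some others, among them *mt-Co2*, *mt-Atp6* and *mt-Atp8*, were at 0 in every library, and the reason was not tested. The part of these groups of genes in the snoRNA host counts was not tested.

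Markers of other cell types were summed per library. Border macrophage markers summed to 112 to 237 CPM in ARG1+ and 106 to 141 CPM in ARG1- libraries, with 0 of 5 tested genes called and *Cd163* and *Lyve1* at 0 in all ARG1- libraries. Monocyte markers summed to 1.89 to 6.70 CPM and 5.05 to 14.1 CPM, with *Plac8* lower (-2.38, adjusted p = 0.00466), *Chil3* at 0 in every library and *Ly6c2* at 0 in ARG1+. Astrocyte markers summed to 129 to 150 CPM in ARG1+ and 176 to 224 CPM in ARG1- libraries, without overlap, with *Slc1a3* lower (-0.43, adjusted p = 0.00817). Oligodendrocyte markers summed to 57.1 to 117 CPM and 80.3 to 174 CPM, endothelial markers to 48.1 to 90.8 CPM and 34.9 to 63.5 CPM, with 0 genes of either list called and *Cldn5* at 0 in every library. Of the 8 microglia markers, 1 was higher (*Sall1* 0.43, adjusted p = 0.0239) and 5 were lower, among them *Siglech* (-0.73, adjusted p = 0.000426) and *Gpr34* (-0.92, adjusted p = 0.000655). Their part in the host gene values was not tested.

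Genes that overlap a host gene or start beside it were read from the same fit, since single-exon gene pairs that cover at least 90% of each other had totals within 10% in 9 of 9 pairs on the same strand and in the 1 pair on opposite strands. Reads over 2 genes were therefore counted for both, and in that 1 opposite pair without regard to strand. *Gm17300* lies antisense over 705 of the 986 exon bases of *Snhg3*, with 146 counts beside 143 of *Snhg3* in ARG1- female replicate 1 and 459 beside 371 in ARG1+ female replicate 7. Its value (log2 change 0.48, adjusted p = 0.323, edgeR) and that of *Snhg3* can therefore share reads. *Rcc1*, a nucleotide exchange factor for Ran, starts 81 bases from *Snhg3* on the same strand and shares 135 exon bases (0.08, adjusted p = 0.814). It also spans both *Snora73* positions, and had 834 counts beside 371 of *Snhg3* in ARG1+ female replicate 7. *Zbtb37*, which starts on the other strand 427 bases from *Gas5*, had 0.83 (adjusted p = 0.35), and *Slc3a2*, the heavy chain of amino acid transporters, which starts on the other strand 106 bases from *Snhg1*, had -0.10 (adjusted p = 0.624). *Mcmdc2* over *Snhg6* had 0.43 (adjusted p = 0.793), and the short *Gm23925* inside *Snhg17* had 1.62 (adjusted p = 0.523). None of these neighbours was called.

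The host genes were also compared by their pattern over the libraries. The root mean square difference of their centred log2 CPM was 0.32 for *Gas5* and *Snhg3*, the closest pair, and 1.34 for *Snhg5* and *Snhg12*, the most distant pair. The 5 genes outside the set nearest to the mean centred profile of the 9 were *C130040N14Rik* (0.145), *Srsf2* (0.162), a splicing factor, *Surf2* (0.167), *Slc7a6os* (0.176) and *Pkib* (0.177), as root mean square differences in log2 units over the 12 libraries.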

How the data were processed

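RNA of sorted microglia was amplified with the SMART-Seq v4 kit, made into libraries by the Nextera XT method and read from 1 end. The deposited values are raw counts per gene, which the authors made by aligning with STAR 2.6.1d to GRCm38 and counting with featureCounts 1.5.1, without normalization. All 12 columns were matched to samples by name, and 0 columns were unused. Reads carry no molecular identifiers, so amplified copies are counted as separate reads. Pairs of libraries of 1 group differed by 40.7 to 125 times the degrees of freedom of a chi-square of their counts, so each was counted as 1 replicate.

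The members and all gene lists were chosen with earlier results of these data known. Symbols, positions, exons and nested snoRNA genes were taken from GENCODE M21, which matched 55227 of 55487 identifiers; the rest held 0.0333% of counts. Low genes were removed by filterByExpr given the 4 groups (edgeR 4.0.16, R 4.3.3). After TMM scaling, ARG1 status was tested over all 12 libraries by the quasi-likelihood functions glmQLFit and glmQLFTest, with sex as a term. Sex contrasts and the interaction used a fit of the 4 group means. P values were adjusted by Benjamini-Hochberg over all genes tested, with a limit of 0.05. Each standard error is the absolute log2 fold change divided by the square root of F. Levels are CPM of the TMM-scaled library, and the profile comparison used log2 CPM with a prior count of 2. The edgeR step was tested on simulated data.

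Named genes are the 9 members, the 2 genes of smallest p in each direction among those called in each list, overlapping or divergent neighbours and the 5 closest profiles. *Fbl*, *Dkc1*, *Nop10* and *Snord78* were named after their values were seen. Alternatives were DESeq2 1.42.0 (Wald test without a prior), other size factors, other filters, ARG1 status alone, a term for libraries numbered 13 to 16, libraries 1 to 12 alone, ribosomal protein and mitochondrial genes left out, thinned counts, and each library left out. Subtraction of nested counts, libraries 13 to 16 alone, nested counts per host count, the check of which rows reach the filter in each population, the snoRNA rows of other hosts and the detained-intron list without *Malat1* and *Neat1* were added after seeing the data. Some single genes are not reported here.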

Additional observations from a re-analysis of the deposited data

How the results depend on the processing

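No fitted change of a host gene reversed under the alternatives set at the start, of which that with at least 10 counts in every library tested 8 genes and dropped *Snhg12*. With the counts of nested snoRNAs lying wholly in host exons subtracted, *Snhg1* turned to -0.025 (adjusted p = 0.977). With those lying partly in exons subtracted too, *Snhg3* turned to -0.0089 (adjusted p = 0.989), since this takes off *Snora73a*. Nothing was subtracted from *Snhg6*, whose snoRNA is intronic, and the other 6 host genes kept their sign. The number of host genes called higher was 0, and 1 (*Snhg15*) with DESeq2's Wald test and with at least 10 counts in every library. In these 2 fits, 2141 of 18671 and 1282 of 11633 of all genes tested were higher. The number of host genes called higher was between 0 and 1 when single libraries were left out. It was 1 without ARG1- male replicate 6, where 981 of 18012 genes were higher, and the number called lower was 0 throughout. All genes called numbered 2682, but 4105 with DESeq2 and 638 in libraries 1 to 12 alone, and from 1753 (without ARG1+ male replicate 12) to 2669 when 1 library was left out. Nested snoRNA rows called higher numbered 3 of 22 tested, but 1 of 33 without a filter, 8 of 29 with DESeq2 and 0 of 25 in libraries 1 to 12 alone. Of all genes tested, 998 of 29671 were higher without a filter and 304 of 17278 in libraries 1 to 12 alone. When 1 library was left out, 0 to 2 nested rows were called higher. In those fits all genes called higher ran from 690 of 17725 (without ARG1+ male replicate 12) to 1116 of 17792 (without ARG1- female replicate 1). The cause of these differences was not tested. Ribosomal protein genes called lower numbered 79, but 56 in libraries 1 to 12 alone, and 78 to 79 when 1 library was left out. The median of all genes, 0.06, was 0.11 with DESeq2 and without a filter and 0.15 in libraries 13 to 16 alone, where *Snhg1*, *Snhg5*, *Snhg12* and *Snhg17* had the opposite sign over 2 libraries per population, with no test. No paired analysis was made, because the labels do not say which ARG1+ and ARG1- libraries share a litter. *Snhg8* and *Snhg12* rest on few counts, and at their intervals a change like that of the ribosomal protein genes could not be told from none.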
